A study of Rattus norvegicus with 18 samples.

Results

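The genes described here are the late-lowered genes of depolarized rat hippocampal neurons: 192 genes of 14218 whose messenger RNA was little changed after 1 h in KCl and clearly lower after 6 h. They were chosen by measured values. The signal of each gene's brightest probe set (the group of short oligonucleotides that the array reads as 1 value) was put on a log2 scale, and the KCl change was averaged over both arms of the study. A gene entered when its 6 h minus 0 h change was -0.9 or lower and its 1 h minus 0 h change lay between -0.4 and 0.4. Of 197 genes inside both bounds, 5 were left out by name (Arpp21, Fst, Kcnab1, Kcnip1 and Zfp958l1), since the rule passes over certain genes and symbol families such as Kcn and Zfp.

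The study measured hippocampal neurons from rat, grown in dissociated culture, on 18 Affymetrix arrays, with 3 arrays in each of 6 groups. In the MEF2 RNAi arm the neurons received lentiviruses with shRNAs against MEF2A and MEF2D on day 3 of culture, and in the control arm they received lentiviruses with control shRNAs on the same day. On day 10 the neurons of both arms were kept for 1 h in AP5, an antagonist of NMDA receptors, and in TTX, a toxin that closes sodium channels and stops action potentials. They were then given 55 mM extracellular KCl for 0, 1 or 6 h, so the groups are MEF2 RNAi at 0, 1 and 6 h and control at 0, 1 and 6 h. The 0 h arrays thus come from blocked neurons that had no KCl. No separate arrays came from neurons left without KCl for 1 or 6 h, so KCl and elapsed time cannot be told apart. The labels call the arrays biological replicates without describing the cultures, so the p-values measure the spread between these arrays alone.

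High extracellular KCl depolarizes the membrane and opens voltage-gated calcium channels, and calcium signals then change transcription in the nucleus. Immediate early genes, which encode transcription factors, respond first, and later waves of transcripts follow. The level of a message reflects both its synthesis and its decay, and array signals do not separate these. MEF2A and MEF2D are calcium-regulated transcription factors of neurons that bind an AT-rich DNA element.

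Mef2a signal in the RNAi arm was 32.8% of control at 0 h, 26.5% at 1 h and 27.6% at 6 h, and Mef2d was at 69.5%, 74.7% and 67.5% of control. The mean log2 differences over the 3 times were -1.80 for Mef2a (SE 0.06, adjusted p = 1.42e-11, limma) and -0.50 for Mef2d (SE 0.04, adjusted p = 3.50e-07, limma). Arrays of a group correlated at 0.993 to 0.998 across genes, and the array medians of the deposited signal were 240.0 to 248. All 10 neuron markers passed the filter on dim genes, with a median log2 signal of 12.73 at 0 h. The astrocyte markers Gfap and Slc1a3 had mean signals of 10710 and 11120, so astrocyte messages were abundant as well. The microglial markers were dim (Aif1 at 438, Csf1r at 159), and of 9 endothelial and fibroblast markers 7 passed the filter, with Dcn at 1722 and Col1a1 at 486, while Pecam1 was below it at 46.8. In a mixed culture, fewer cells of a type and less RNA per cell cannot be told apart.

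Across the 192 genes the averaged change at 6 h had a median of -1.07 on the log2 scale, a 2.09-fold lower signal than at 0 h, with quartiles of -1.22 and -0.97. The median over all 10933 genes tested was -0.02. A total of 129 members were at least 2-fold lower, and the largest fall was 3.56-fold. These values chose the members and are given as a description without a test. The all-gene background was itself wide: 32% of tested genes were called lower at 6 h and 20.7% higher (limma, adjusted p under 0.05). In all 192 members the 3 arrays at 6 h lay below the 3 arrays at 0 h in both arms, a pattern held by 22.4% of all tested genes, and for the members it follows largely from the rule.

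The label "late" described the members within its own window. At 1 h the averaged change had a median of -0.16, against -0.02 over all tested genes, and 182 of the 192 members were below their 0 h mean. The 1 h and 6 h changes share the 0 h arrays, and the rule used both. These 1 h values are therefore a description and do not show an early start of the fall. The median member had covered 14.5% of its 6 h fall by 1 h. The median over members was -0.21 in the RNAi arm and -0.12 in the control arm at 1 h, then -1.12 in the RNAi arm and -1.05 in the control arm at 6 h. The 6 h changes ran between -1.96 and -0.69 in the RNAi arm and between -1.86 and -0.62 in the control arm. A further 20 genes met the 6 h bound but lay below the 1 h window, whereas the mirrored thresholds for late-raised genes held 113.

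**Figure D1:**
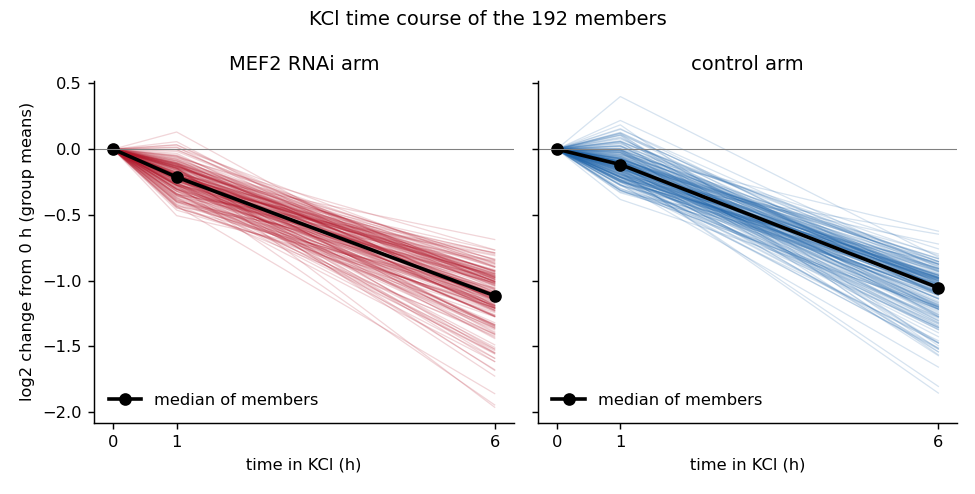
Log2 change from 0 h (y axis, group means of 3 arrays) against time in KCl (x axis, hours) for the 192 members in the MEF2 RNAi arm (left) and the control arm (right), 1 thin line per gene. The black line joins the medians, which lie at -0.21 and -1.12 in the RNAi arm and at -0.12 and -1.05 in the control arm.

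The members near the bounds differed little from genes that missed them. Just inside the 6 h bound were Mthfsd at -0.90, Prmt3 at -0.90 and Paip1 at -0.90, and just outside were Trmt10b at -0.89, Usp8 at -0.89 and Rasip1 at -0.89. At the lower 1 h bound, Dnajb3 at -0.39, Fbxo30 at -0.38 and Pfkfb2 at -0.37 were inside, while Slc16a6 at -0.40, Derl2 at -0.41 and Pik3ip1 at -0.41 were outside. No gene was lost at the upper 1 h bound, where Pcf11 was the highest member at 0.27, followed by Coch and Map2k6 at 0.05 each. At 0 h the members were of ordinary brightness, with a median log2 signal of 9.68 against 9.77 over all tested genes and a range of 7.22 to 13.25. Values under a signal of 72.6 had been raised to it, and 4 members had at least 1 array at that floor.

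The 12 largest falls belonged to Scrn3, Zmat1, Lrrc24, Ttc8, Fbxl4, Nr3c2, Ngly1, Cep70, Orc5, Rars2, Tmco6 and Vipas39, with averaged changes of -1.83 to -1.50. Scrn3, a member of the secernin family, had signals in the RNAi arm of 716, 907 and 792 at 0 h, 597, 603 and 582 at 1 h, and 248, 205 and 211 at 6 h. The Scrn3 signals were 849, 841 and 656 at 0 h, 756, 688 and 625 at 1 h, and 235, 239.8 and 195 at 6 h in the control arm. The 6 h arrays of Scrn3 formed a separate low group in both arms, and the arms overlapped at 0 h and at 6 h.

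Ttc8 encodes a subunit of the BBSome, the complex that carries membrane proteins into and out of cilia. Its signals were 409, 467 and 477 at 0 h, 423, 383 and 420.2 at 1 h, and 154, 126 and 129.9 at 6 h in the RNAi arm. Ttc8 read 405, 369 and 351 at 0 h, 493, 403 and 387 at 1 h, and 156, 124 and 119.9 at 6 h in the control arm. All 6 h arrays lay below the earlier arrays, and at 0 h the RNAi arrays were just above the control arrays, a difference of 0.27 with an adjusted p of 0.137 without the replicate number as a block and 0.0475 with it (limma). Fbxl4, a mitochondrial F-box protein that restrains mitophagy, had signals of 772, 704 and 763 at 0 h, 682, 635 and 658 at 1 h, and 236, 224 and 239.8 at 6 h in the RNAi arm. Fbxl4 read 776, 728 and 604 at 0 h, 661, 729 and 674 at 1 h, and 254, 205 and 303 at 6 h in the control arm. The arms overlapped at every time.

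Ngly1, the cytosolic enzyme that strips N-glycans from misfolded proteins, had signals of 1235, 1189 and 1309.9 at 0 h, 1160.0, 1158 and 1126 at 1 h, and 610.1, 391 and 321 at 6 h in the RNAi arm. Ngly1 read 1230.3, 1052 and 1083 at 0 h, 1390.3, 1087 and 1045 at 1 h, and 465, 345 and 353 at 6 h in the control arm. Its 6 h arrays were the most scattered among these 12 genes in the RNAi arm, with 1 array well above the other two. Orc5, part of the origin recognition complex, had signals of 837, 814 and 803 at 0 h, 712, 615 and 622 at 1 h, and 344, 265 and 240.1 at 6 h in the RNAi arm. Orc5 read 932, 848 and 814 at 0 h, 761, 701 and 723 at 1 h, and 317, 279 and 312 at 6 h in the control arm. Here the 1 h arrays were already below the 0 h arrays in both arms, within the window allowed by the rule.

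**Figure D2:**
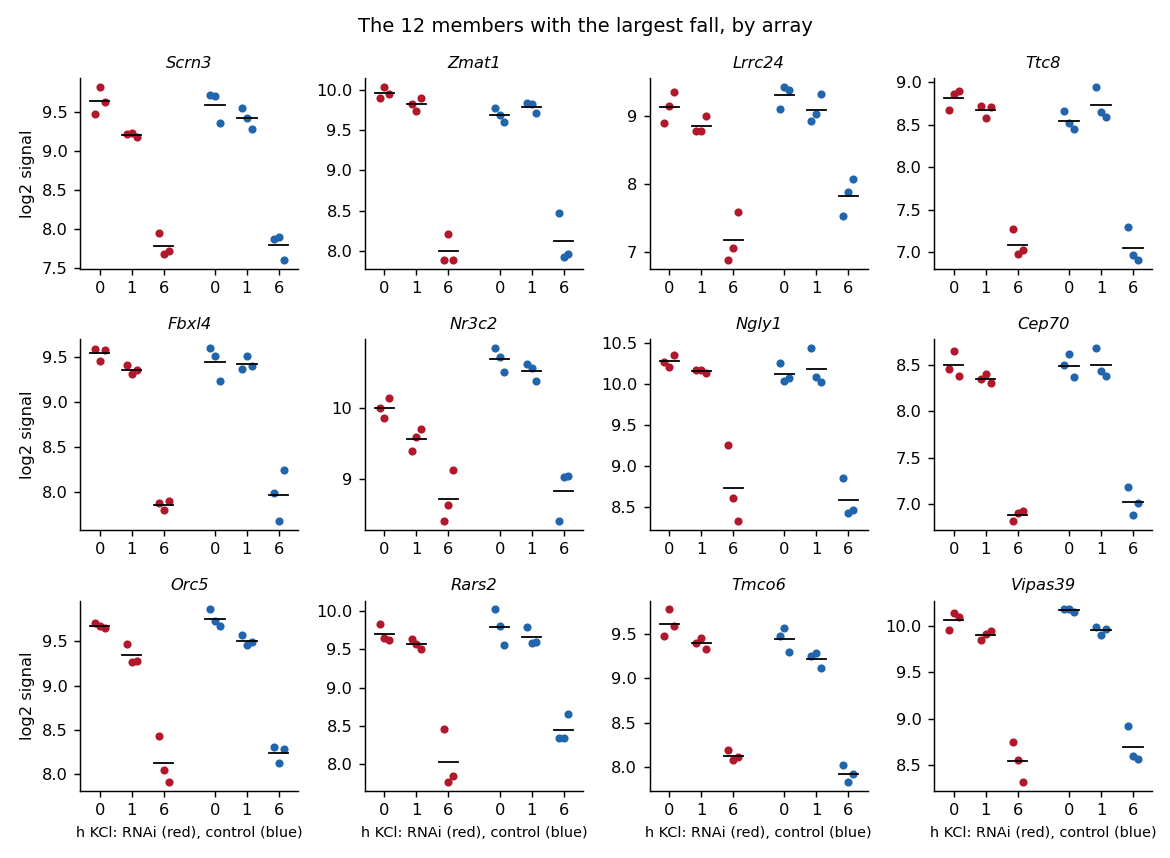
Log2 signal by array (y axis) for the 12 members with the largest averaged fall, at 0, 1 and 6 h of KCl (x axis), with the RNAi arm on the left of each panel in red and the control arm on the right in blue. Points are arrays and bars are means of 3; every 6 h group lies below its 0 h group, and Nr3c2 starts lower in the RNAi arm.

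Promoters of 5 members are shown because these genes carry large falls (Scrn3, the first by size, and Ttc8, the fourth) or the RNAi differences described further on (Gpcpd1, Fhl2 and Tmtc1). Each is 300 bases, 250 before and 50 after the annotated start, read 5′ to 3′ on the gene's strand from the RefSeq table of rat assembly GRCr8. Capitals mark matches, on either strand, to the partial CRE site TGACG, the MEF2 core TATTTATA and the GC box GGGCGG. The window of Zmat1, the second by size, holds none of the motifs searched and is not printed.
Scrn3 (chr3:78596148-78596447, + strand): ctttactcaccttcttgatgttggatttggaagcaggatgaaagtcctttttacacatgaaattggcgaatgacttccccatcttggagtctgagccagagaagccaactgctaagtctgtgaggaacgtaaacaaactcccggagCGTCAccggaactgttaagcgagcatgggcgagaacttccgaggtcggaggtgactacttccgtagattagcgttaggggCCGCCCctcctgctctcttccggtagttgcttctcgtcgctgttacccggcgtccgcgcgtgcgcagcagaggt
Ttc8 (chr6:123927657-123927956, + strand): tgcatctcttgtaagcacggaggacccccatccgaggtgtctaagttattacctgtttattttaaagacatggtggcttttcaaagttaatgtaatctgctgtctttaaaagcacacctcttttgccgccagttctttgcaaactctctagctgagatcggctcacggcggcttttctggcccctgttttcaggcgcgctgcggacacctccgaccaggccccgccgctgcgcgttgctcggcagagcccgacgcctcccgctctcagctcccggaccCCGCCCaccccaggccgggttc
Gpcpd1 (chr3:140285296-140285595, - strand): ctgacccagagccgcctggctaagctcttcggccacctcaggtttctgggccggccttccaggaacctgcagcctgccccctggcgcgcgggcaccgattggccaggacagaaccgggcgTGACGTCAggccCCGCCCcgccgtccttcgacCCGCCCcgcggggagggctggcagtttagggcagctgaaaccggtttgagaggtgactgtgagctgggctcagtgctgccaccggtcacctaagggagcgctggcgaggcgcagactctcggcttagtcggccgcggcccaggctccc
Fhl2 (chr9:52954491-52954790, - strand): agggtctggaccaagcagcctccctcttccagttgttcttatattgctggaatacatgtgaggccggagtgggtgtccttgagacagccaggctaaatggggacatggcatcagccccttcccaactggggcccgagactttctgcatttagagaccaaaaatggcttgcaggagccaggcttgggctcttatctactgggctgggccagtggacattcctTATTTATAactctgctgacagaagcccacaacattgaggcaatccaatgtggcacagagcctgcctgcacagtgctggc
Tmtc1 (chr4:183089359-183089658, - strand): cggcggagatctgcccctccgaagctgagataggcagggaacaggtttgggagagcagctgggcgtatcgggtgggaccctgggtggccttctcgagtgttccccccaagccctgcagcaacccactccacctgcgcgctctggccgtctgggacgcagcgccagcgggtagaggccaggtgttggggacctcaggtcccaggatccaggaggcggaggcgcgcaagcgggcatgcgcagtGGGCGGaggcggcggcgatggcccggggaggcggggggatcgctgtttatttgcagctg
The Scrn3 window holds 1 partial CRE site and 1 GC box, and that of Gpcpd1 holds a whole CRE palindrome, TGACGTCA, beside 2 GC boxes. Fhl2 was the only member whose window held the MEF2 core, and it has few CpG pairs, with an observed over expected ratio of 0.0926 against 0.973 in Scrn3. The bases TTTATA within that core are also a match, on the other strand, to the TATA box TATAAA. The sequence alone does not tell these readings apart.

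A RefSeq promoter was found for 161 members and for 9088 of the tested genes, members included. The shares of member promoters with the more frequent motifs were near those of the tested genes. The partial CRE site TGACG was in 36.0% of member promoters, against 32.3% of tested genes and 22% of all 27457 promoters in the table. The palindromic CRE TGACGTCA, which holds the partial site on both strands, was in 3.73% of member promoters (Gtpbp10, Gpcpd1, Amn1, Zc3h4, Trap1 and Mthfsd), against 3.36% of tested genes and 1.91% of all. The GC box GGGCGG was in 63.4% of member promoters, 63.2% of tested genes and 34.9% of all, and CCAAT was in 35.4%, 37.5% and 37.7%.

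Among the less frequent motifs, the E-box and the TATA box were in smaller shares of member promoters than of tested genes. The AP-1 site TGANTCA was in 3.73% of member promoters, 4.71% of tested genes and 7.33% of all. The E-box CACGTG was in 5.59%, 9.74% and 6.65%, and the TATA box TATAAA in 3.73%, 6.68% and 14.3%. The partial steroid receptor site TGTTCT was in 12.4%, 12.2% and 20.1%, and the FoxO site GTAAACA in 1.86%, 2.26% and 3.76%. The partial REST site TCAGCACC was in 2.48%, 1.72% and 1.58%, the Egr site GCGTGGGCG in 1.86%, 1.14% and 0.590%, and the MEF2 core in 0.621%, 0.737% and 1.85%. Both strands were searched, and these shares were not tested.

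Member promoters were like those of tested genes in base composition, with a median GC content of 61.0% against 61.3% and a median CpG ratio of 0.796 against 0.775. The median gene length was 26.9 kb in members and 23.9 kb in tested genes. A gene starting on the opposite strand within 1000 bases was present for 30 members, or 18.6%, against 15.6% of tested genes. Scrn3 is one of these, next to Cir1.

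By general knowledge, 132 members could be placed in 7 functional groups and 60 were left ungrouped. The grouping was made once the members were known and serves as a description. The groups' median falls lay close together, between -1.13 and -1.01.

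The mitochondrial group was the largest, with 27 members and a median of -1.13. Protein synthesis inside mitochondria was represented at several steps. Rars2 (-1.52) and Vars2 (-1.34) charge mitochondrial tRNAs with arginine and valine. Mtfmt (-1.47) formylates the initiator tRNA, and Gtpbp10 (-1.32) acts in assembly of the mitochondrial ribosome. Mmut (-1.44) is methylmalonyl-CoA mutase, an enzyme of propionate breakdown. Rars2 had signals of 915, 805 and 787 at 0 h, 794, 761 and 728 at 1 h, and 352, 217 and 229 at 6 h in the RNAi arm. Rars2 read 1043, 895 and 751 at 0 h, 889, 770.5 and 776 at 1 h, and 325, 323 and 404 at 6 h in the control arm. The 6 h arrays lay below all arrays of the earlier times in both arms.

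Glycosylation and the secretory pathway formed a group of 25 members with a median of -1.13. Besides Ngly1 (-1.55), it held enzymes of N-glycan assembly in the endoplasmic reticulum: Alg8 (-1.19) adds glucose to the lipid-linked glycan, and Alg5 (-1.10) makes the glucose donor. Cog1 (-1.13) belongs to the COG complex that tethers vesicles at the Golgi. Vipas39 (-1.50) acts in vesicle sorting, with signals of 996, 1129 and 1092 at 0 h, 919.8, 968 and 988 at 1 h, and 431, 378 and 319 at 6 h in the RNAi arm. Vipas39 read 1161, 1160.5 and 1141 at 0 h, 1015, 957 and 1002 at 1 h, and 484, 389 and 379 at 6 h in the control arm. The 0 h arrays of the RNAi arm were all just below those of the control arm, a difference of -0.11 that was not called (adjusted p = 0.530, limma).

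Cilium and centrosome proteins made up 13 members with a median of -1.01. After Ttc8 (-1.61) came the centrosomal protein Cep70 (-1.54) and the subunits of intraflagellar transport complex B Ift81 (-1.40), Ift25 (-1.36) and Ift88 (-0.95). Cep70 had signals of 352, 404 and 334 at 0 h, 326, 338 and 316 at 1 h, and 113, 120.0 and 122 at 6 h in the RNAi arm. Cep70 read 362, 393 and 330.4 at 0 h, 411, 346 and 333 at 1 h, and 145, 118 and 129 at 6 h in the control arm. The arms overlapped at every time.

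Transcription and chromatin accounted for 19 members with a median of -1.13. Nr3c2 (-1.57), the mineralocorticoid receptor, binds corticosteroids and is abundant in hippocampal neurons. Srebf1 (-1.29) activates genes of lipid synthesis. Carf (-1.19) is a calcium-responsive transcription factor, Smarca1 (-1.16) is an ISWI chromatin remodeller and Polr2a (-1.08) is the largest subunit of RNA polymerase II. Srebf1 signals were 4786, 6132 and 6151 at 0 h, 4174, 5199.9 and 5291 at 1 h, and 1642, 2857 and 2722 at 6 h in the RNAi arm. Srebf1 read 3292, 5118 and 5425 at 0 h, 3111, 4839 and 4891 at 1 h, and 1057, 2317 and 2504 at 6 h in the control arm. In each of the 6 groups replicate 1 had the lowest Srebf1 signal, and the arms overlapped at every time. Between arrays of the same replicate number, however, Srebf1 was higher in the RNAi arm at every time. Polr2a signals were 1773, 1693 and 1593 at 0 h, 1565, 1531 and 1348 at 1 h, and 881, 785 and 582 at 6 h in the RNAi arm. Polr2a read 1667, 1519 and 1369 at 0 h, 1386, 1495 and 1262 at 1 h, and 958, 817 and 597 at 6 h in the control arm. Polr2a overlapped between the arms at each time. Between arrays of the same replicate number, it was higher in the RNAi arm at 0 and 1 h and lower at 6 h. The interaction of RNAi with 6 h KCl was not called for Polr2a or Srebf1, with or without the replicate number as a block (limma).

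The smaller groups spanned several steps of nucleic acid metabolism. RNA processing and translation held 14 members with a median of -1.11, among them Dtd2 (-1.46), which removes D-amino acids from tRNA, Snupn (-1.22), which imports spliceosomal particles, and the paraspeckle protein Pspc1 (-1.20). DNA repair and replication held 9 members with a median of -1.04. They included Orc5 (-1.53), the poly(ADP-ribose) polymerase Parp2 (-1.38), the mismatch repair protein Msh3 (-0.96) and the nucleotide excision repair protein Xpa (-0.95).

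Signalling and cell surface proteins numbered 25 with a median of -1.05. Frs3 (-1.42) is an adaptor of FGF receptors, Kndc1 (-1.34) is a Ras exchange factor of dendrites, and Slc38a9 (-1.27) senses lysosomal arginine upstream of mTORC1. Dixdc1 (-1.27) acts in the Wnt pathway, and Adra2c (-1.06) is an adrenergic receptor. Each of these 5 genes was more than 2-fold lower at 6 h than at 0 h.

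**Figure D3:**
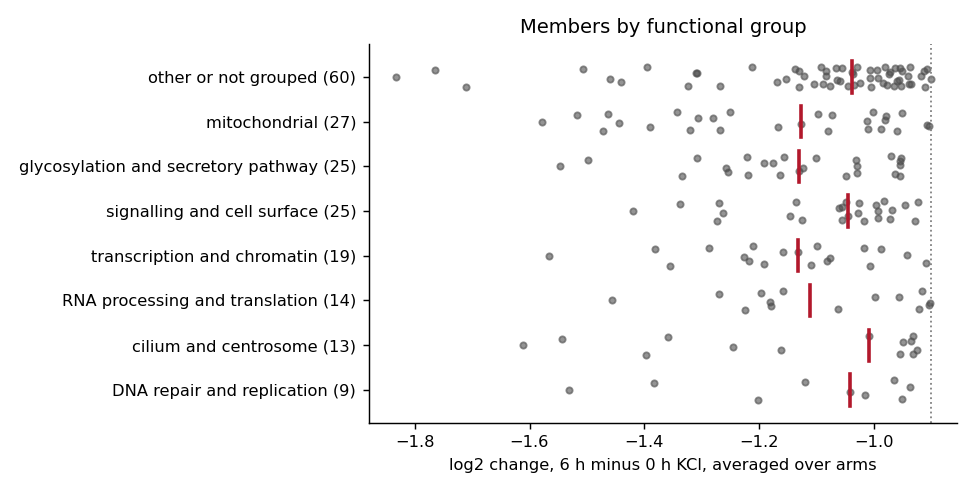
Log2 change at 6 h of KCl minus 0 h, averaged over arms (x axis), for each member, grouped by function (y axis, number of members in brackets); red bars are group medians and the dotted line is the entry bound of -0.9. The medians of the groups lie between -1.13 and -1.01.

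For 62 members the array carried 82 further probe sets. Of these, 54 from 44 members passed the filter on dim signals, with a median averaged change at 6 h of -0.44 and a range of -1.55 (Lyrm9) to 0.14 (Ddx42). Of the 54, 13 were at -0.9 or lower, 24 at -0.5 or lower, and 21 lay within 0.2 of 0. The second Orc5 probe set was at -1.22, whereas further passing sets were at -0.24 for Dtd2, -0.47 for Ift81, and -1.06 and -0.55 for Mmut. A fall quoted for a gene is thus that of its brightest probe set. Several probe sets of a gene can read different transcript ends, and which part of a message each reads was not examined here.

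The related pathways were read from lists of genes taken from general knowledge, in the comparison of 6 h with 0 h averaged over arms. The counts of lower genes include members, which the rule chose on this same comparison, so counts of non-members are given beside them. The backgrounds over all tested genes were 32% lower and 20.7% higher. In the primary cilium and Hedgehog list, 10 of 22 tested genes were called lower, of which 2 were members (Ift81 and Ift88), and 3 were called higher. The ciliary transcription factor Rfx3 fell by 0.66 (SE 0.06, adjusted p = 2.89e-07, limma). The share of non-members lower, 8 of 20, was near the background.

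Among monoamine, acetylcholine and adenosine receptors 6 of 17 were called lower and 0 higher. Of the 16 non-members, 5 were lower, near the background. The lower genes included the member Adra2c, the related adrenergic receptor Adra2a (-0.87, SE 0.06, adjusted p = 1.79e-08, limma) and the adenosine receptor Adora1 (-0.36, SE 0.04, adjusted p = 4.16e-06, limma). Among nuclear receptors and their coregulators, 5 of 18 were lower (4 of 17 non-members) and 6 higher. In that list the retinoic acid receptor Rarb fell by 0.67 (SE 0.05, adjusted p = 2.68e-08, limma), while Sgk1, a kinase gene induced by corticosteroid receptors, rose by 2.18 (SE 0.13, adjusted p = 1.37e-09, limma). The member Nr3c2 thus stood in a list that moved both ways.

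RNA decay and CCCH zinc finger proteins had 10 of 26 lower, 2 of them members (Zc3h8 and Zc3h4), and 8 higher. Of the 24 non-members, 8 were lower, near the background. Zc3h6 was at -1.97 (SE 0.12, adjusted p = 1.74e-09, limma) but missed the 1 h window at -0.57, and Zc3h13 rose by 0.75 (SE 0.05, adjusted p = 1.16e-08, limma). Growth factor receptors and adaptors had 11 of 28 called higher and 3 lower, the member Frs3 among the lower. Of the 27 non-members, 2 were lower.

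The other 5 lists were mixed. The counts of lower and higher genes were 5 and 4 of 19 for insulin and FoxO signalling, 4 and 4 of 19 for Notch, and 4 and 5 of 19 for Wnt. They were 6 and 7 of 20 for cyclic nucleotide synthesis and breakdown, and 8 and 10 of 31 for neuronal lineage transcription factors. Apart from those named, no list gene was a member.

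The RNAi arm was compared with the control arm next, a contrast that the rule did not use, since both arms entered its averages with equal weight. A total of 191 members passed the filter and were tested, and Odr4 did not pass. Averaged over the 3 times, 47 members were called lower and 34 higher in the RNAi arm (limma, adjusted p under 0.05). Over all tested genes 16.6% were called lower and 20.9% higher, so the members' 24.6% lower is above the background and their 17.8% higher is near it. The median difference was -0.04 in members and 0.01 over all tested genes. Most differences were small: 12 of the 81 called members differed by 0.5 or more on the log2 scale and 2 by 1 or more. By functional group, the mitochondrial group had 3 lower and 6 higher of 27 tested members, and glycosylation and secretory pathway 6 and 3 of 24. Signalling and cell surface had 6 and 8 of 25, and transcription and chromatin 6 and 2 of 19. RNA processing and translation had 3 and 1 of 14, cilium and centrosome 3 and 1 of 13, and DNA repair and replication 4 and 0 of 9. These counts by group are small and were not tested.

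Coch, which encodes the secreted protein cochlin, had the largest decrease. Its signals were 226, 254 and 227 at 0 h, 196, 238 and 219 at 1 h, and 76.1, 96.9 and 98.4 at 6 h in the RNAi arm. Coch read 502, 524 and 451 at 0 h, 588, 626 and 508 at 1 h, and 242, 267 and 282 at 6 h in the control arm. The arms did not overlap at any time, and the mean difference was -1.34 (SE 0.06, adjusted p = 6.43e-10, limma). The 6 h arrays of the RNAi arm were near the floor of 72.6 but above it.

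Fhl2, a LIM-domain cofactor of transcription whose promoter is printed above, had signals of 2576, 2357 and 2043 at 0 h, 1942, 1824 and 1852 at 1 h, and 904, 833 and 969 at 6 h in the RNAi arm. Fhl2 read 3751, 3058 and 2997 at 0 h, 3625, 2647 and 3045 at 1 h, and 1808, 1646 and 1946 at 6 h in the control arm. The RNAi arrays lay below the control arrays at each time, with a mean difference of -0.74 (SE 0.07, adjusted p = 6.03e-07, limma). Its difference was -0.49 at 0 h, -0.72 at 1 h and -1.0 at 6 h, all called. The Fhl2 interaction was not called at 1 h or 6 h, with or without the block, so a change of the difference with time was not shown.

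Trappc12, a subunit of a vesicle tethering complex, had signals of 1208, 1251 and 1283 at 0 h, 1041, 1072 and 1191 at 1 h, and 566, 569.9 and 615 at 6 h in the RNAi arm. Trappc12 read 1864, 2024 and 1955 at 0 h, 1699.8, 1897 and 1848 at 1 h, and 805, 872 and 775 at 6 h in the control arm. The arms were separate at each time, with a mean difference of -0.62 (SE 0.04, adjusted p = 1.17e-08, limma). Rmnd1, needed for translation in mitochondria, had signals of 563, 572 and 495 at 0 h, 422, 404 and 379 at 1 h, and 305, 314 and 282 at 6 h in the RNAi arm. Rmnd1 read 928, 760.3 and 769 at 0 h, 756, 705 and 696 at 1 h, and 406, 384 and 379.8 at 6 h in the control arm. Its arms were also separate at each time, with a mean difference of -0.60 (SE 0.05, adjusted p = 1.02e-07, limma).

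Nr3c2 was called lower at 0 h and 1 h and not at 6 h. Its signals were 1024, 930.4 and 1123 at 0 h, 669.5, 771 and 832 at 1 h, and 339.8, 399 and 555 at 6 h in the RNAi arm. Nr3c2 read 1828, 1671 and 1447 at 0 h, 1566, 1501 and 1328 at 1 h, and 341, 519 and 527 at 6 h in the control arm. The arms were separate at 0 h (-0.68, adjusted p = 0.0163, limma) and at 1 h (-0.95, adjusted p = 0.00157, limma), and they overlapped at 6 h (-0.10, adjusted p = 0.773, limma). The interaction at 6 h, 0.58 (SE 0.25), was not called (adjusted p = 0.550, limma), so a difference between times was not shown.

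The other members with the largest decreases were Plgrkt, the plasminogen receptor (-0.60), Bivm (-0.56), Gpcpd1 (-0.51), Spetex2l2 (-0.48), Sanbr (-0.47), the diacylglycerol kinase Dgkg (-0.47) and the RNA-binding protein Hnrnph3 (-0.41). Their adjusted p-values lay between 1.64e-07 and 0.000483 (limma). Dgkg was at -0.24 when all its probe sets were averaged.

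Tmtc1, an O-mannosyltransferase of the endoplasmic reticulum, was the member with the largest increase. Its signals were 1038, 1429 and 1609 at 0 h, 928, 1222 and 1403 at 1 h, and 518, 608 and 707 at 6 h in the RNAi arm. Tmtc1 read 377, 546 and 450.3 at 0 h, 318, 438 and 445 at 1 h, and 150.4, 186 and 190.3 at 6 h in the control arm. Every RNAi array lay above the control arrays of its time, and the mean difference was 1.64 (SE 0.11, adjusted p = 3.02e-08, limma). Both arms nonetheless showed the late fall, at -1.14 in the RNAi arm and -1.37 in the control arm.

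Mrgbp, a subunit of the NuA4 histone acetyltransferase complex, had signals of 2609.9, 2723 and 2836 at 0 h, 2032, 2091 and 2024 at 1 h, and 1235, 1208 and 1098 at 6 h in the RNAi arm. Mrgbp read 1662, 1573 and 1550.1 at 0 h, 1405, 1265 and 1191 at 1 h, and 844, 702 and 870.3 at 6 h in the control arm. The arms were separate at each time, with a mean difference of 0.67 (SE 0.05, adjusted p = 3.40e-08, limma). Kndc1 had signals of 479, 609 and 624 at 0 h, 499, 491 and 575 at 1 h, and 253, 239 and 304 at 6 h in the RNAi arm. Kndc1 read 363, 411 and 385 at 0 h, 346, 390.2 and 417 at 1 h, and 102, 129.7 and 165 at 6 h in the control arm. Its arms were also separate, with a mean difference of 0.67 (SE 0.09, adjusted p = 1.67e-05, limma).

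Pfkfb2, which sets the level of the glycolysis activator fructose 2,6-bisphosphate, differed by 0.58 (SE 0.05, adjusted p = 2.88e-07, limma), but by 0.11 when all its probe sets were averaged. The further members with the largest increases were Armc10 (0.48), the mitochondrial RNA-binding protein Ptcd1 (0.48), the phospholipase Plcd4 (0.43), the succinate dehydrogenase assembly factor Sdhaf2 (0.39), Myl9 (0.37), Etl4 (0.37), Lrsam1 (0.36) and Gpr155 (0.36). Averaging all probe sets gave 0.14 for Sdhaf2 and 0.18 for Gpr155, and both were still called.

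**Figure D4:**
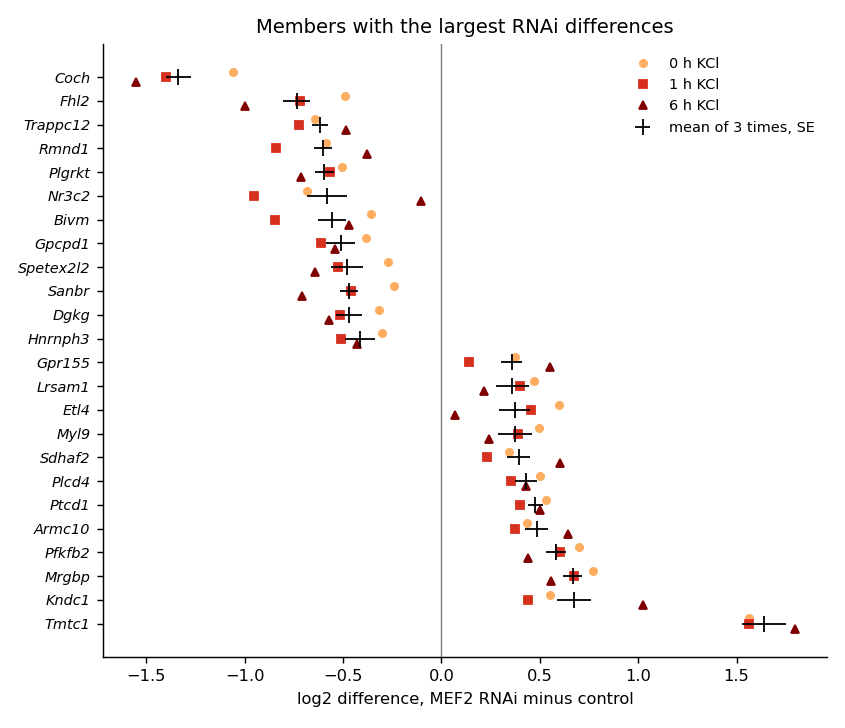
Log2 difference, MEF2 RNAi minus control (x axis), at 0, 1 and 6 h of KCl and as the mean of the 3 times with its SE, for the 12 members with the largest decreases and the 12 with the largest increases among called members (y axis). Coch lies farthest left at -1.34 and Tmtc1 farthest right at 1.64.

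At single times, 18 members were lower and 22 higher at 0 h, against 6.19% lower and 8.66% higher over all tested genes. At 1 h, 33 were lower and 12 higher, against 9.12% lower and 7.98% higher. With the replicate number as a block, the 45 members called at 1 h became 75, against 28.1% of all tested genes. At 6 h, 34 were lower and 17 higher, against 8.54% lower and 8.66% higher. Without replicate 2 of the control 0 h group the 40 calls at 0 h dropped to 26. A total of 12 members were called lower at all 3 times and 9 higher at all 3, against 3.61% lower and 3.8% higher at all 3 over all tested genes, and none had calls in opposite directions.

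Markers of other cell types differed between the arms too. Of the 7 endothelial and fibroblast markers tested, 4 were called lower in the RNAi arm: Dcn (-0.86), Lum (-0.83), Cldn5 (-0.44) and Kdr (-0.12). The summed signal of that list ranged from 2081 to 3291 in RNAi arrays and from 3382 to 4279 in control arrays. Of 7 astrocyte markers, 4 were called higher, with sums of 38397 to 48223 in RNAi arrays and 32133 to 43066 in control arrays. Of the 10 neuron markers 3 were lower, among them the neurofilament Nefm at -1.04, and 1 was higher. No microglial marker of the 6 tested was called. Their part in the members' RNAi differences was not tested. At 6 h of KCl, summed neuron marker signals were 66856 to 77527, against 68902 to 77338 at 0 h. Marker genes changed in both directions at 6 h: Cldn5 (0.84), Dcn (0.29) and Kdr (0.23), 3 of the 7 endothelial and fibroblast markers tested, were called higher, as were Nefl (0.22), Mbp (0.33) and Mcm2 (0.43), while Tubb3 (-0.35) and Gfap (-0.27) were called lower. No microglial marker was called at 6 h. Summed endothelial and fibroblast signals were 2796 to 4118 at 6 h, against 2305 to 4169 at 0 h, and astrocyte sums were 32483 to 45322, against 32658 to 48223. Their part in the members' fall was not tested.

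The last question was whether the fall itself differed between arms. The interaction is the KCl change in the RNAi arm minus that in the control arm. Without the replicate number as a block, it was called for 0 members at 1 h and 0 members at 6 h (limma). In that fit, 9 members at 1 h (all lower), and 9 higher and 16 lower at 6 h, had an unadjusted p under 0.05. Over all tested genes the shares at that unadjusted p were 1.22% higher and 2.1% lower at 1 h, and 2.96% higher and 5.27% lower at 6 h. Over all tested genes the interaction calls were 0.0% at 1 h, and 0.0274% higher and 0.0915% lower at 6 h. The median interaction at 1 h was -0.09 in members, with quartiles of -0.19 and -0.03. Over all tested genes it was -0.02, with quartiles of -0.10 and 0.06, and this shift was not tested. The median interaction at 6 h was -0.05 in members and -0.000221 over all tested genes, the range in members was -0.59 to 0.60, and 184 of 191 members lay within 0.5 of 0. The median SE was 0.15 per member, and even the members at -0.59 and 0.60 were not called without the block. In simulated data, 52 of 100 interactions of 0.5 at 6 h were called. Differences between arms of about that size, and smaller ones, could thus be missed gene by gene.

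With the replicate number as a block, 3 members were called at 6 h, all with a larger fall in the RNAi arm, against 0.787% of all tested genes called lower. Pgbd5 had signals of 1432, 1476 and 1794 at 0 h, 1354, 1354 and 1434 at 1 h, and 560.4, 727 and 750.3 at 6 h in the RNAi arm. Pgbd5 read 1394, 1614 and 1424 at 0 h, 1393, 1436 and 1476 at 1 h, and 817, 997 and 1073 at 6 h in the control arm. The arms overlapped at 0 h and 1 h, and the RNAi arrays were lower at 6 h. The Pgbd5 interaction was -0.59, with an adjusted p of 0.0298 with the block and 0.242 without it (limma).

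Lyplal1 had signals of 1130.0, 1072 and 993 at 0 h, 844, 759 and 856 at 1 h, and 388, 395 and 407 at 6 h in the RNAi arm. Lyplal1 read 1061, 933 and 997 at 0 h, 969, 884 and 958 at 1 h, and 585, 493 and 581 at 6 h in the control arm. The arms overlapped at 0 h only, and the interaction was -0.57, with an adjusted p of 0.00762 with the block and 0.0672 without it (limma). Sanbr had signals of 2687, 2892 and 2556 at 0 h, 2173, 2506 and 2289 at 1 h, and 999, 1153 and 1070.4 at 6 h in the RNAi arm. Sanbr read 3200.5, 3374 and 3046 at 0 h, 3427, 3189 and 2961 at 1 h, and 1705, 1804 and 1740.2 at 6 h in the control arm. The Sanbr arms were separate at each time, and the interaction was -0.46, with an adjusted p of 0.0181 with the block and 0.135 without it (limma). With the mean of all its probe sets the Sanbr interaction was -0.15 (adjusted p = 0.855, limma, no block).

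**Figure D5:**
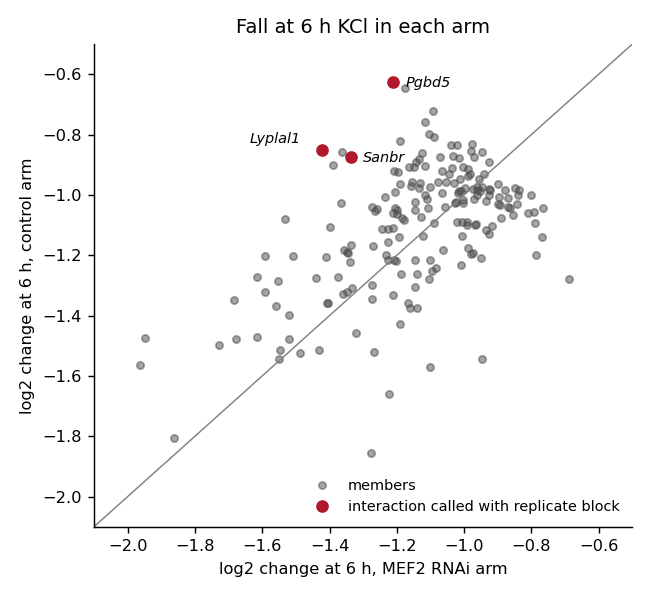
Log2 change at 6 h of KCl minus 0 h in the MEF2 RNAi arm (x axis) and in the control arm (y axis) for the 192 members; the grey line marks equal changes. The 3 genes in red, Pgbd5, Lyplal1 and Sanbr, lie above the line, with a larger fall in the RNAi arm.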

How the data were processed

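The deposited table lists a linear intensity for each of 31099 probe sets on each of 18 arrays. The authors' summary and normalization steps are not stated in the sources used here. Per the labels' protocols, total RNA was extracted with a Qiagen kit and biotin-labelled. Before taking log2, intensities below 72.6, the 20th percentile of the table, were set to that value. Each of 14218 genes was represented by its brightest probe set among the 20832 with 1 symbol in the platform annotation, while 436 had several symbols and 9831 were not listed. The 10933 genes above the 40th percentile of their array on at least 3 arrays were tested.

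Tests used lmFit and eBayes of limma 3.58.1 (R 4.3.3) with 1 mean per group over all 18 arrays, two-sided p-values adjusted by Benjamini-Hochberg over all tested genes and calls at an adjusted p under 0.05. This fit leaves out the pairing of arrays by replicate number, and p-values are from it unless the block is named. With the block, more genes were called in every comparison between arms and in the 6 h interaction. The script was tested on simulated data. Contrasts were RNAi minus control at each time and averaged, and its interaction with KCl. The KCl changes of members carry no test because they chose the members. The members and lists were chosen with earlier results of these data known. Of the members, 191 matched the RefSeq table of assembly GRCr8 by gene ID, with the same symbol.

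Named members are the 12 largest falls, up to 12 called in each direction between arms, the 3 nearest each bound on either side, up to 5 of each functional group and up to 3 genes per list. The result of 1 list is not reported here. Odr4, the genes left out by name, the genes with a CRE palindrome and those at the ends of the range of further probe sets were named after their values were seen. Alternatives were another floor, an offset of 32, no filter, quantile normalization, the mean of all probe sets, a variance trend, the replicate number as a block and each array left out. The replicate numbers of the labels paired the samples: the 45 correlations between same-numbered arrays, as deviations from group means, were all over 0.1 (0.168 to 0.741, median 0.491). The median of -0.227 for other numbers is no separate check, since deviations from a group mean cancel within the group.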

Additional observations from a re-analysis of the deposited data

Results flagged for a closer look

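In 3 of the 191 tested members the 6 h KCl change differed between the arms by the test of the difference itself, with the replicate number as a block. Over all tested genes the same test called 126, or 1.15%, in either direction, and 0.787% lower. The count of 3 is small and is not read as a trait of the members. The change in the RNAi arm minus that in the control arm was -0.59 for Pgbd5, -0.57 for Lyplal1 and -0.46 for Sanbr on the log2 scale. All 3 arrays of the RNAi arm lay below all 3 of the control arm at 6 h in each of these genes. That separation is a difference between arms and does not by itself show a different KCl change. Sanbr was separate at 0 h and 1 h as well, and Lyplal1 at 1 h. With all 18 arrays, none of the 3 passed without the block, and Lyplal1 passed without it when replicate 2 of the control 6 h group was left out (-0.65, adjusted p = 0.0460, limma). With the mean of all its probe sets Sanbr was at -0.15 (adjusted p = 0.855, limma, no block).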

How the results depend on the processing

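The arrays number 3 per group, which limits every count, and signals at the floor understate differences. Of 675 values recomputed for 27 results on named members (18 settings that leave out 1 array, 7 others), 671 kept direction and side of the threshold, 4 newly passed it and 0 reversed. The 4 were Pgbd5, Lyplal1 and Sanbr with the replicate block, and Lyplal1 without replicate 2 of the control 6 h group. With the replicate block, calls over all genes increased to 2846 at 0 h (1624 without it), 3073 at 1 h (1869 without it) and 3081 at 6 h (1881 without it), member calls at 1 h to 75 (45 without it), and interaction calls at 6 h to 126 over all genes (13 without it) and 3 in members (0 without it). Among those 27 results the block changed no other call. Leaving out 1 array gave 26 to 43 members at 0 h, 1207 to 2009 genes at 6 h (1207 without replicate 1 of the MEF2 RNAi 6 h group), 0 to 1 genes for the 1 h interaction, and 1 to 15 genes and 0 to 1 members for the 6 h interaction. The cause was not tested. The averaged RNAi comparison called 79 to 86 members with 1 array left out and 80 to 102 under the other settings. The number of genes meeting the membership rule was 184 to 210 with 1 array left out, 159 with the offset, 169 after quantile normalization and 148 with the mean of all probe sets. In the RNAi arm alone 201 genes met it (159 of them members), and in the control arm alone 211 (169 of them members).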
